A study of Rattus norvegicus with 12 samples.

Results

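Collagens, laminins and integrins were described in the jejunum and liver of rats given antibiotics or saline. The members were taken by gene symbol alone: every row named Col, number, a, number (collagen chains), Lam, a letter from a to c, number (laminin chains) or Itg, a or b, number (integrin subunits). That gave 70 of the 22830 genes listed in either tissue, made up of 41 collagens, 10 laminins and 19 integrins. All 70 were in the jejunal table, which lists 21568 genes, and 63 were in the liver table, which lists 18703 genes. Col2a1, Col9a1, Col11a1, Col15a1, Col23a1, Itga10 and Lama1 were listed in jejunum only. Col1a2 and Col6a3 were not analysed here, and integrins whose symbols do not end in a plain number, such as Itgav and Itgal, stand outside the pattern.

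Collagens are trimers of alpha chains that form fibrils, basement membrane networks and the filaments between them. Laminins are trimers of 1 alpha, 1 beta and 1 gamma chain, and with type IV collagen they form the sheet on which epithelium, muscle and endothelium rest. Integrins are pairs of an alpha and a beta subunit in the cell membrane that bind these proteins outside the cell and link them to actin inside it. In the gut wall the muscle layers and fibroblasts make most of the matrix. In liver stellate cells and sinusoidal endothelium are among the sources, and no continuous basement membrane lines the sinusoids.

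Poly(A) RNA was sequenced from both organs of Wistar Han rats after 2 weeks of gavage at 5 mL/kg. The antibiotics groups received a mixture with 10 g/L vancomycin, 0.2 g/L amphotericin B, an antifungal, and 20 g/L of each of ampicillin, neomycin and metronidazole. The saline groups, titled wild type by the submitters, received the same volume of saline. Each of the 4 groups has 3 libraries, 12 in all. The labels do not say that each library is another animal, so p-values below measure the spread between these libraries, which may be in part technical.

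Values are the authors' normalized counts, that is, reads divided by 1 factor per library, and a fold change is the log2 ratio of antibiotics to saline. A gene was called where limma gave a Benjamini-Hochberg adjusted p under 0.05 over all genes of the tissue with a mean normalized count of at least 1. Jejunal libraries held 14592126 to 18322008 reads, of which 38.7% to 64.8% were mitochondrial with antibiotics and 26.8% to 80.7% with saline. Liver libraries held 15017775 to 19318616 reads, with 3.6% to 4.48% mitochondrial reads with antibiotics and 6.42% to 25.0% with saline, so these groups did not overlap. Members together had 41776 to 84858 reads with antibiotics and 10714 to 38814 with saline in jejunum. In liver they had 26582 to 36880 reads with antibiotics and 11950 to 18096 with saline. Intervals on such counts would cover counting error only. Markers of both organs were present, from Vil1 and Fabp2 in jejunum to Ttr and Ass1 in liver.

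Type IV collagen genes stand head to head in pairs, and their shared upstream windows are shown because both chains of the first pair were called in liver. A promoter window of 250 bases before and 50 bases after the start site was found in RefSeq (GRCr8) for 54 of the 70 members. In that annotation the start sites of Col4a1 and Col4a2 lie 77 bases apart on opposite strands, so the Col4a1 window holds both. Those of Col4a3 and Col4a4 lie 413 bases apart, and those of Col4a5 and Col4a6 lie 1415 bases apart. Itga1, the member called in both tissues, and Lamc1, a gamma chain called in liver, are shown beside them. Capitals mark GGGCGG, the core of a GC box, and CCAAT, each on either strand. The 4 windows are chr16:84885347-84885646 on the plus strand for Col4a1, chr9:91323740-91324039 on the plus strand for Col4a3, chr2:48545234-48545533 on the minus strand for Itga1 and chr13:68051937-68052236 on the minus strand for Lamc1.
Col4a1: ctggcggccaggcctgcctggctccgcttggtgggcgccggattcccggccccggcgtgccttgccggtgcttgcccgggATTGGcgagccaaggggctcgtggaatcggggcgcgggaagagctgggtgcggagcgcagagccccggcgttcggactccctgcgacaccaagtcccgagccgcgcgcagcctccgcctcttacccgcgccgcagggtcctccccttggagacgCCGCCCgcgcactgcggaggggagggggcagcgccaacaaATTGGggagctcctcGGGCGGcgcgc
Col4a3: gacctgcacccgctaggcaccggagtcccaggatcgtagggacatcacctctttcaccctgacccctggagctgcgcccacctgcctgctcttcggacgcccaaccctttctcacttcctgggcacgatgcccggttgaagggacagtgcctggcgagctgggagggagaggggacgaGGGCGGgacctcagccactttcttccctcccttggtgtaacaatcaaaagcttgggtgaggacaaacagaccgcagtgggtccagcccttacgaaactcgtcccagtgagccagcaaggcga
Itga1: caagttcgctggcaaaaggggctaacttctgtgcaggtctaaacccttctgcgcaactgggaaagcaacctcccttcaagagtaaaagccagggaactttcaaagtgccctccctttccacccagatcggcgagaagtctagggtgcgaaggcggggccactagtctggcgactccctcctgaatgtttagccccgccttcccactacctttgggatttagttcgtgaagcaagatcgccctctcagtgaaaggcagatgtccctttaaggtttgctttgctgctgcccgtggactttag
Lamc1: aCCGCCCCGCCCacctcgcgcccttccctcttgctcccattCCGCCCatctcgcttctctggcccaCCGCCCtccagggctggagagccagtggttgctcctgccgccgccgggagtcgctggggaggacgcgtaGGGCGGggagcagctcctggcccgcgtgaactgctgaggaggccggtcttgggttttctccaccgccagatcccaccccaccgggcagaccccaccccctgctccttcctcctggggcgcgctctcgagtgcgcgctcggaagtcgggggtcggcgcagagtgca

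The Col4a1 window held 2 matches to GGGCGG and 2 to CCAAT, and the Lamc1 window held 5 matches to GGGCGG, of which 2 overlap by 1 base. Col4a3 had 1 match to GGGCGG, and Itga1 had neither motif. GGGCGG occurred in 32 of the 54 member windows (59.3%) and in 33.1% of all 33469 RefSeq windows. CCAAT occurred in 15 of 54 (27.8%), against 37.5% of all windows, and TATAAA on either strand in 5 of 54 (9.26%), against 14.2%. The CArG box, the motif bound by serum response factor in muscle genes, matched 3 of 54 windows (5.56%), those of Col6a4, Itgb6 and Lama2, against 1.64% of all windows. These matches are descriptions of letters, and no test was run on them.

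Levels are compared between genes per length, in FPKM. The tables were normalized separately, so levels of jejunum and liver stand side by side with no test between them. Summed over the collagens listed, jejunum had 400 ± 69.6 FPKM with antibiotics and 217 ± 119 with saline, and liver had 276 ± 62.6 with antibiotics and 174 ± 14.1 with saline (SD, n = 3 each). Jejunal collagen was spread over many chains: Col3a1, the chain of the fibril-forming type III homotrimer, gave 23.1% of the sum with antibiotics and 20.1% with saline. In liver 1 gene dominated, as Col18a1, the chain whose end fragment is endostatin, gave 77.0% ± 6.71 of summed collagen FPKM with antibiotics and 72.3% ± 5.41 with saline (SD, n = 3 each). The order of the next collagens in the saline livers was Col3a1, Col6a1, Col6a2 and Col4a1, whose FPKM of 23.1 ± 3.86, 5.53 ± 0.73, 5.26 ± 1.57 and 2.52 ± 0.56 overlap between Col6a1 and Col6a2 only.

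Summed laminin FPKM was 84.9 ± 17.0 with antibiotics and 42.9 ± 23.1 with saline in jejunum, and 9.03 ± 2.05 with antibiotics and 4.58 ± 0.37 with saline in liver (SD, n = 3 each). Lamb2, the beta chain of muscle and vascular laminins, led in jejunum with 38.3% of the sum with antibiotics and 34.4% with saline. In liver Lamc1, the gamma chain shared by most laminins, gave 42.3% ± 4.87 with antibiotics and 28.3% ± 8.30 with saline, while Lamb2 gave 16.2% ± 1.25 and 29.2% ± 8.28 in the same groups. Summed integrin FPKM was 260 ± 21.4 with antibiotics and 154 ± 37.6 with saline in jejunum, and 75.0 ± 7.87 with antibiotics and 44.1 ± 9.94 with saline in liver. Itgb1, the beta subunit that pairs with most matrix-binding alpha subunits, was first in both tissues. It gave 67.2% of jejunal integrin FPKM with antibiotics and 53.0% with saline, and 37.4% with antibiotics and 34.4% with saline in liver.

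**Figure D1:**
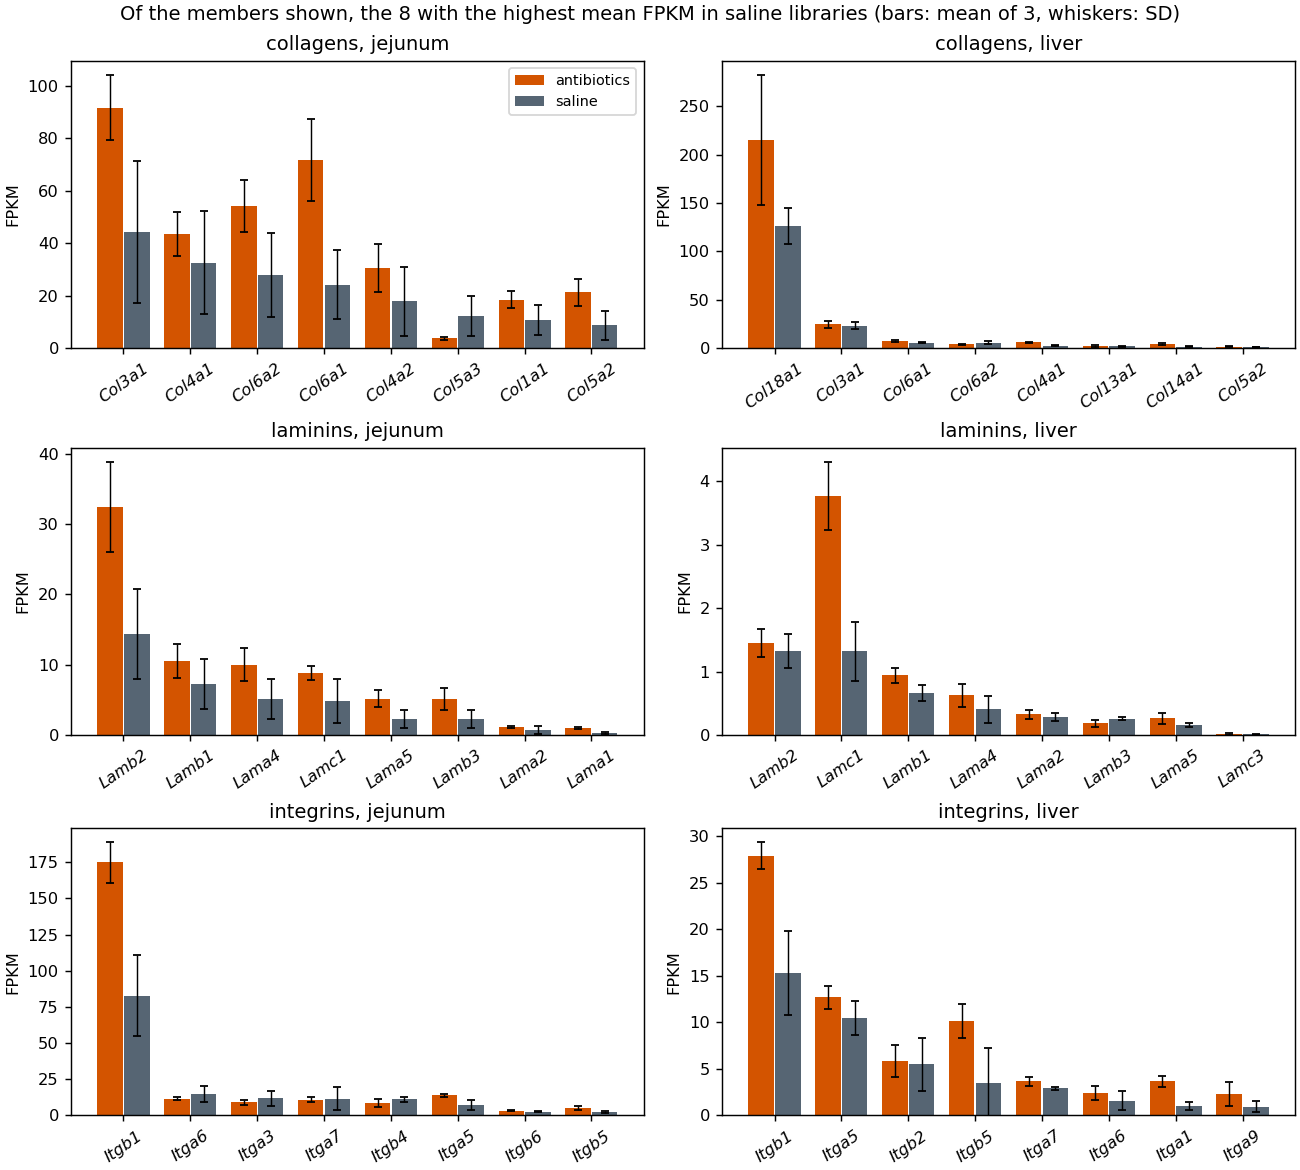
Mean FPKM of 8 collagens, 8 laminins and 8 integrins, taken by the highest mean in saline libraries among the members shown, in jejunum (left) and liver (right); bars are means of 3 libraries and whiskers SD, with antibiotics left of saline and the axis starting at 0. Col18a1 stands far above the other liver collagens and Itgb1 is the highest integrin in both tissues.

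In jejunum 2 members rose with antibiotics, Col12a1 and Itga1, and 0 fell. Of the 70 members, 69 passed the minimum, since Col10a1 had too few counts. Over all 19450 genes tested, limma called 0.761% higher and 0.519% lower. Most other members lay above 0 without passing the test: 59 of 69 had a positive log2 fold change, with a median of 0.90, where the median over all genes was 0.06. An unadjusted p under 0.05, in either direction, was found for 28 of 69 and for 22.2% of all genes. The 3 antibiotics libraries lay above the 3 saline libraries for 21 of 69, against 16.6% of all genes, and below them for 1, Col17a1, against 11.3%. In the longest of 10 classes of gene length, which held 34 of the members, 36.8% of all genes lay above. Bulk RNA cannot tell apart a change in the number of cells of a type and a change in RNA per cell.

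Among jejunal collagens 1 of 40 tested rose, 35 lay above 0 and the median log2 fold change was 0.87. Col12a1, a collagen that sits on the surface of type I fibrils (ENSRNOG00000058470), had 1035, 934 and 1391 normalized counts with antibiotics, against 543, 239 and 267 with saline. Every antibiotics library was above every saline library. The mean was 1120 ± 240 with antibiotics and 350 ± 168 with saline (SD, n = 3 each), a log2 fold change of 1.76 ± 0.34 (SE) with a limma adjusted p of 0.0398.

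Fibril-forming chains were called in 0 of 10 cases, and the median of the 10 was 1.07. An unadjusted p under 0.05, in either direction, was found for 7, against 22.2% of all genes. The 7 include Col5a3, which lay below 0 (log2 -1.41). Col5a1, which limits fibril diameter, had 1576, 1106 and 1788 normalized counts with antibiotics, against 861, 281 and 262 with saline. The groups were separate, with saline library 1 well above the other saline libraries, and limma gave 1.87 ± 0.43 (SE) at an adjusted p of 0.0569. Col3a1 had 6344, 4938 and 6290 with antibiotics and 4691, 1385 and 2334 with saline (log2 1.23, limma adjusted p 0.114), and Col1a1, of the main fibrillar collagen, averaged 1433 ± 255 with antibiotics and 837 ± 443 with saline (limma adjusted p 0.192). For Col1a1 saline library 1, at 1309, lay inside the range of the antibiotics libraries.

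Col6a1 and Col6a2, chains of the beaded filaments around cells, had separate groups in jejunum. Col6a1 had 3262, 2218 and 3391 normalized counts with antibiotics, against 1610, 615 and 748 with saline (log2 1.68 ± 0.37 SE, limma adjusted p 0.0526). For Col6a2 the log2 fold change was 1.16 at an adjusted p of 0.164. The type IV chains Col4a1 and Col4a2, the common pair of all basement membranes, did not separate: Col4a1 had 3860, 3095 and 4568 with antibiotics and 4557, 1164 and 2815 with saline (log2 0.62, limma adjusted p 0.426). Col15a1 and Col18a1, basement membrane collagens with sugar side chains, had log2 values of 0.38 and 0.08, and Col14a1, a fibril-associated relative of Col12a1, had 0.21. All 3 overlapped between groups.

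Not every jejunal collagen lay above 0, and the 2 lowest are named after their values were seen. Col17a1, the hemidesmosome collagen of epithelial cells, had 26.0, 85.6 and 16.4 normalized counts with antibiotics, against 92.0, 268 and 125 with saline (log2 -2.09 ± 0.63 SE, limma adjusted p 0.0966). Col5a3 had 361, 257 and 278 with antibiotics, against 1423, 283 and 1209 with saline (log2 -1.41, adjusted p 0.156), with saline library 2 inside the antibiotics range. Beside them, 0 of 9 epithelial markers and 0 of 7 adipocyte markers had a positive log2 fold change in jejunum, and 0 of each were called. Summed normalized counts were 29960 to 41640 with antibiotics and 34290 to 87170 with saline for epithelium, and 2870 to 6105 with antibiotics and 5858 to 37380 with saline for adipocytes. Their part in these values was not tested. Col26a1 had 0 reads in every saline jejunum and 2, 3 and 2 reads with antibiotics, which is at the floor of 3 reads per library, so no fold is given, and without it the collagen median was 0.86.

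All 10 jejunal laminins lay above 0, their median (log2) was 1.11, and 0 of 10 were called. Lamb2 had 2502, 2100 and 3102 normalized counts with antibiotics, against 1695, 746 and 938 with saline. Its groups were separate, with saline library 1 nearest to the antibiotics libraries, and limma gave 1.26 ± 0.33 (SE) at an adjusted p of 0.0741. Lama5, the alpha chain of epithelial and vascular basement membranes, had 655, 700 and 998 with antibiotics, against 566, 237 and 243 with saline (log2 1.27, limma adjusted p 0.0863). Lama4, the alpha chain of vessels and muscle, averaged 797 ± 187 with antibiotics and 407 ± 225 with saline (log2 1.11, limma adjusted p 0.148). Lamc1, Lamb1 and Lama2 overlapped between groups, with log2 values of 1.06, 0.63 and 0.85.

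Integrins in jejunum divided by subunit. Itga1, the alpha subunit of the collagen receptor of muscle and fibroblasts (ENSRNOG00000053550), had 440, 452 and 557 normalized counts with antibiotics, against 112, 113 and 17.2 with saline. The lowest antibiotics library was well above the highest saline library, and the spread in saline came from library 3. The value of that library rests on 8 reads. It had 80.7% mitochondrial reads and 3510319 other reads, the fewest in jejunum. The mean was 483 ± 64.3 with antibiotics and 80.7 ± 54.9 with saline (SD, n = 3 each), a log2 fold change of 2.96 ± 0.61 (SE) with a limma adjusted p of 0.0458. Itgb1, its partner, had 8517, 7919 and 9286 with antibiotics, against 5451, 3877 and 2749 with saline, again with separate groups (log2 1.14 ± 0.30 SE, limma adjusted p 0.0746).

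Other jejunal integrins of the matrix had separate groups but did not pass the test. Itga5, the fibronectin receptor subunit, averaged 821 ± 66.6 with antibiotics and 412 ± 196 with saline (log2 1.09, limma adjusted p 0.0966). Itga8, a subunit of smooth muscle that binds the RGD motif, had a log2 value of 1.86 (adjusted p 0.0749), Itga9 had 2.17 (adjusted p 0.0828) and Itgb3, a partner of alpha V, had 2.80 (adjusted p 0.0746). In saline library 3 Itga9 and Itgb3 had 7 and 2 reads. By contrast, the epithelial laminin receptor Itga6 and Itgb4 had log2 values of -0.32 and -0.40 with overlapping groups. Itga6 averaged 917 ± 88.2 with antibiotics and 1197 ± 455 with saline, and Itgb4 averaged 787 ± 253 with antibiotics and 1017 ± 159 with saline. The leukocyte subunits Itgb2 and Itgb7, named with their values known, had -0.48 and -1.31, with overlapping groups. Of 7 leukocyte markers tested in jejunum 5 lay above 0 and 0 were called. In liver Itgb2 and Itgb7 had log2 values of 0.24 and 0.73, with separate groups for Itgb7 only, and neither was called.

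**Figure D2:**
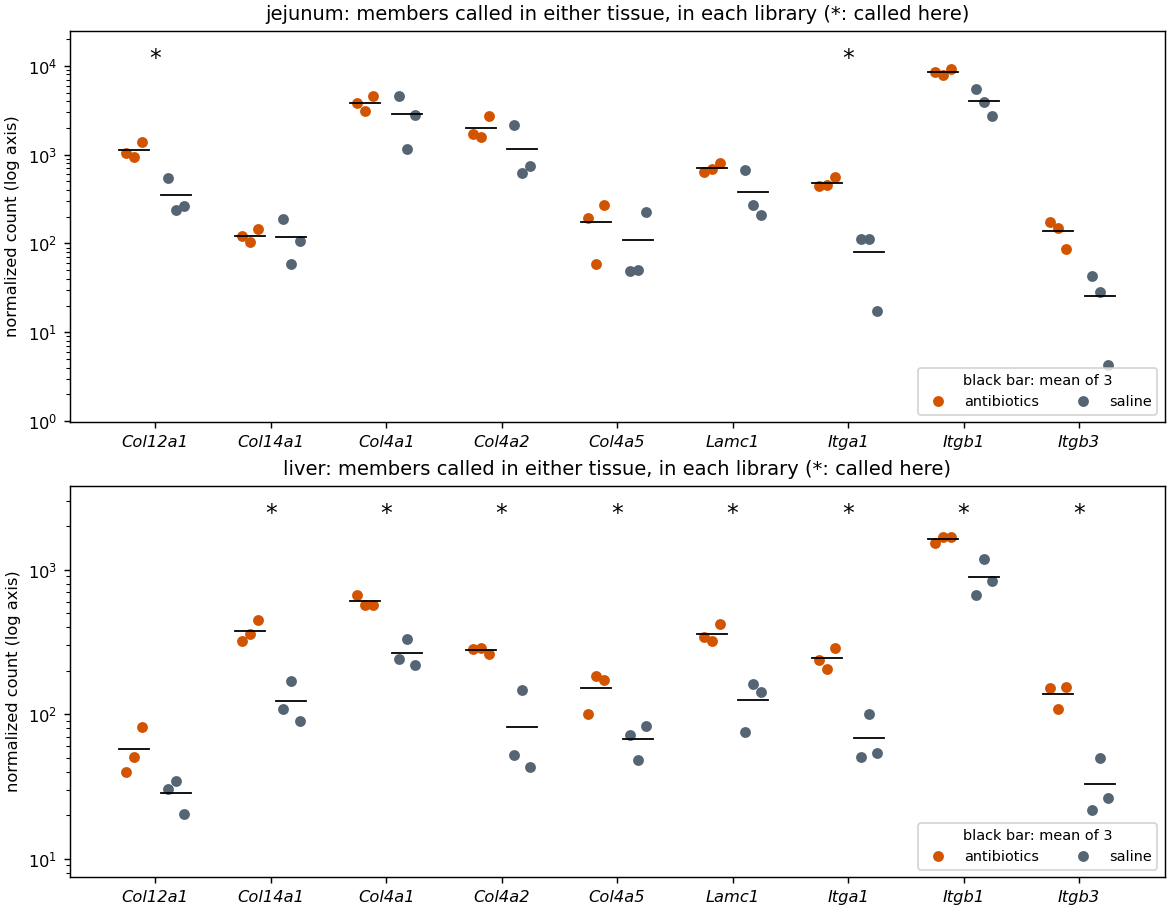
Normalized counts (log axis) in each library for 9 members called by limma in either tissue, jejunum above and liver below; points are libraries, antibiotics left of saline, black bars are means of 3 and stars mark calls in that tissue. Itga1 and Itgb3 are separate in both tissues, while Col14a1 and Col4a1 are separate in liver and overlap in jejunum.

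The jejunal result turned on single libraries. Saline library 1 lay near the antibiotics libraries: the median deviation of collagens from their own means was 0.41, 0.24 and 0.69 (log2) with antibiotics, against 0.33, -0.98 and -0.49 with saline. For laminins these were 0.42, 0.38 and 0.92 with antibiotics, against 0.34, -1.11 and -0.77 with saline. Without saline library 1 limma called 24 members higher, where it called 6.48% of all genes higher. Without saline library 2 it called 0 higher and 1 lower, Col5a3, with 0.164% of all genes higher and 0.39% lower. Without saline library 3 Itga1 was the member called, with 0.194% of all genes higher. Leaving out any of the 3 antibiotics libraries gave 0 members called, and in each case 0 genes of the whole table were called higher.

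Smooth muscle markers moved with the jejunal matrix genes. All 10 of 10 markers had a positive log2 fold change, and Lmod1 and Synpo2 rose in the limma test, with log2 fold changes of 1.69 and 2.49. Their summed normalized counts were 185000 to 207300 with antibiotics and 50600 to 147400 with saline, and none was at 0. The deviation of these markers was 0.55, 0.70 and 0.75 (log2) with antibiotics, against 0.37, -1.07 and -1.13 with saline, the same libraries low as for collagens and laminins. This was not particular to muscle. Enteric neuron and glia markers had 0.22, 0.21 and 0.61 with antibiotics, against 0.40, -1.11 and -0.61 with saline. Saline library 2 was also the lowest for fibroblast (-1.09), endothelial (-0.89) and leukocyte (-0.89) markers, while epithelial markers were high in it (1.00). Of 8 fibroblast markers 5 lay above 0 and 0 were called, with summed counts of 9135 to 11430 with antibiotics and 3522 to 11260 with saline. The part of muscle or of any other cell type in the values of the members was not tested.

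**Figure D3:**
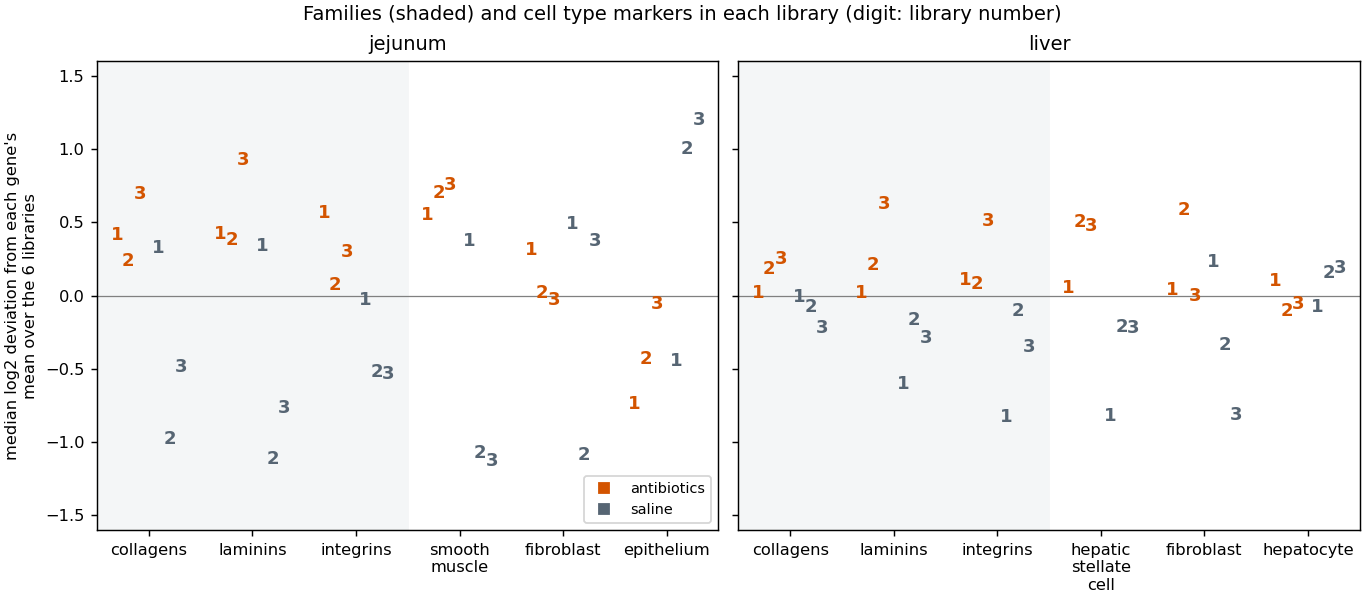
Median log2 deviation of each family (shaded) and of 3 marker lists in each library, relative to each gene's mean over the 6 libraries of the tissue; digits are library numbers, antibiotics left of saline. In jejunum saline library 1 lies near the antibiotics libraries for collagens, laminins and smooth muscle markers, while saline libraries 2 and 3 lie below them.

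Genes that work with the members were read from lists of roles. Beside these lists, limma called 0.761% of all jejunal genes higher, and 2.88% of those in the longest of 10 classes of gene length. In jejunum the adhesion complex inside the cell, which ties integrins to actin, had 4 of 29 genes higher and 0 lower. Tns1, which binds integrin tails, Vcl, which binds talin and actin, and Lims2, a partner of integrin-linked kinase, rose by 2.02, 1.70 and 1.81 (log2). Flna, an actin crosslinker named here after its value was seen, rose by 1.93. Fn1, the fibronectin gene and ligand of Itga5, was the only one of 19 other matrix proteins called: it had 4051, 3548 and 5875 normalized counts with antibiotics, against 1838, 755 and 1187 with saline (log2 1.89, limma adjusted p 0.0363). Ddr2, a receptor kinase for fibrillar collagen, was called among 10 other matrix receptors, with 397, 423 and 652 with antibiotics, against 119, 88.4 and 28.0 with saline (log2 2.82, limma adjusted p 0.0354). Smoc2, a calcium-binding protein of basement membranes, was called among 15 of its list (log2 1.64). Collagen processing had 0 of 29 genes called, matrix proteases and inhibitors 0 of 17, and TGF-beta signalling 0 of 14.

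In liver 9 of 60 members tested rose with antibiotics and 0 fell, which is 15% where limma called 7.93% of all 16540 genes higher and 4.89% lower. They included 4 collagens (Col4a1, Col4a2, Col4a5 and Col14a1), the laminin Lamc1, and Itga1, Itgb1 and Itgb3 among integrins. Col26a1, Col6a4 and Itga2 did not reach the minimum. The median log2 fold change over members was 0.41, with 42 of 60 above 0, and that over all genes was -0.01. Antibiotics libraries lay above saline libraries for 21 of 60 (19.7% of all genes) and below them for 5 (18.1% of all genes). In the longest of 10 classes of gene length, which held 27 of the members, 34.6% of all genes lay above. Without saline library 3 limma called 0 members, with adjusted p from 0.0603 to 0.13 for the 9 genes, and 0.326% of all genes higher. Leaving out each other library gave 4 to 6 members, with 1.39% to 3.9% of all genes higher, except for saline library 2, which gave 11, with 15.2% of all genes higher.

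Basement membrane collagen IV led the liver collagens, with 3 of 6 chains called. Col4a1 (ENSRNOG00000016281) had 671, 569 and 573 normalized counts with antibiotics, against 242, 331 and 220 with saline. The mean was 604 ± 57.8 with antibiotics and 264 ± 58.6 with saline (SD, n = 3 each), a log2 fold change of 1.21 ± 0.20 (SE) with a limma adjusted p of 0.0104. Its head-to-head partner Col4a2 (ENSRNOG00000023972) had 281, 286 and 263 with antibiotics, against 52.2, 148 and 43.4 with saline. The antibiotics libraries were close to each other and saline library 2 stood above the other saline libraries, with a log2 fold change of 1.97 ± 0.41 (SE) and an adjusted p of 0.0218. Col4a5, mutated in human Alport syndrome, rose by 1.15 (adjusted p 0.0426), with 99.6, 183 and 173 with antibiotics, against 71.3, 48.0 and 83.3 with saline.

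The other type IV chains were not called in liver. Col4a3 and Col4a4, the second head-to-head pair, had log2 values of -0.57 and -0.28 with overlapping groups, and Col4a4 averaged 82.2 ± 7.53 normalized counts with antibiotics and 101 ± 18.6 with saline. Col4a6 averaged 2.25 with antibiotics and 0.38 with saline, near the level of 1 read. In jejunum the pair of Col4a3 and Col4a4 had 1.49 and 0.79, and neither was called.

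Col14a1, a fibril-associated collagen (ENSRNOG00000026415), had 320, 359 and 448 normalized counts in liver with antibiotics, against 108, 170 and 90.2 with saline. Each antibiotics library exceeded each saline library, with a log2 fold change of 1.64 ± 0.26 (SE) and a limma adjusted p of 0.00874. Its relative Col12a1, called in jejunum, had 39.8, 50.3 and 81.0 with antibiotics and 30.6, 34.7 and 20.5 with saline in liver (log2 0.94, adjusted p 0.116). Over all 34 liver collagens tested 20 lay above 0, with a median of 0.17.

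Fibrillar collagen stood close to 0 in liver, with a median log2 fold change of 0.07 over 8 chains and 0 called. Col3a1 had 1544, 1986 and 2026 normalized counts with antibiotics and 2075, 1676 and 1504 with saline (log2 0.08 ± 0.21 SE, limma adjusted p 0.817), and the groups overlapped. Col1a1 averaged 105 ± 55.3 with antibiotics and 101 ± 56.7 with saline (log2 0.07). For Col5a1 the groups were separate, at 180 ± 34.5 with antibiotics and 117 ± 15.5 with saline (log2 0.61, adjusted p 0.104). Col6a1 had a log2 value of 0.40 and Col6a2 had -0.43 (adjusted p 0.164 and 0.255), although they are partner chains of 1 protein.

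Col18a1, the most abundant collagen of liver per length, had 22960, 12230 and 16400 normalized counts with antibiotics, against 8403, 10880 and 10960 with saline. All antibiotics libraries were above the saline libraries, by a log2 fold change of 0.73 ± 0.27 (SE), but limma's adjusted p was 0.0986. The authors' deposited table gives Col18a1 a log2 fold change of 0.77 with an adjusted p of 0.0319.

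Lamc1, the most abundant liver laminin per length with antibiotics, rose in liver. Lamc1 (ENSRNOG00000002680) had 341, 321 and 419 normalized counts with antibiotics, against 75.2, 160 and 141 with saline (log2 1.57 ± 0.29 SE, limma adjusted p 0.0124). Every antibiotics library was above every saline library, and saline library 1 was the lowest. Lamb3, a beta chain of epithelial basement membranes, is named after its values were seen and averaged 12.1 ± 3.37 with antibiotics and 16.9 ± 1.56 with saline (log2 -0.48, adjusted p 0.474). In jejunum Lamb3 lay above 0, at 282 ± 85.5 with antibiotics and 124 ± 69.4 with saline, with overlapping groups (log2 1.27, limma adjusted p 0.116).

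Alpha and beta chains of liver were low in counts. Lama4, Lama5 and Lama2 averaged 58.9, 46.9 and 49.3 normalized counts with antibiotics, against 38.3, 27.9 and 42.8 with saline, with log2 values of 0.75, 0.71 and 0.20. Lamb1 averaged 84.6 ± 10.3 with antibiotics and 59.3 ± 11.8 with saline with separate groups (log2 0.52, limma adjusted p 0.219), and Lamb2 averaged 136 ± 20.6 with antibiotics and 124 ± 25.4 with saline (log2 0.14). Of the 9 liver laminins 8 lay above 0, with a median of 0.59.

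Integrins called in liver were the collagen receptor and a partner of alpha V. Itga1 had 237, 204 and 288 normalized counts with antibiotics, against 51.0, 100 and 53.6 with saline. The mean was 243 ± 42.2 with antibiotics and 68.2 ± 27.6 with saline (SD, n = 3 each), a log2 fold change of 1.87 ± 0.30 (SE) with a limma adjusted p of 0.00853. Its partner Itgb1 (ENSRNOG00000010966) had 1530, 1669 and 1679 with antibiotics, against 666, 1184 and 830 with saline (log2 0.90 ± 0.23 SE, adjusted p 0.0317). Itgb3 (ENSRNOG00000048449) had 152, 108 and 155 with antibiotics, against 21.7, 50.1 and 26.2 with saline (log2 2.12 ± 0.35 SE, adjusted p 0.0098). In all 3 the saline library nearest to the antibiotics libraries was number 2.

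Itgav, the alpha V subunit that pairs with Itgb3 and lies outside the name pattern, rose too in liver, with 187, 160 and 269 normalized counts with antibiotics, against 51.0, 99.1 and 46.8 with saline (log2 1.68, limma adjusted p 0.0152). It was the only one of 7 such integrins tested that was called in liver, and 0 of 7 were called in jejunum, where Itgav had a log2 value of 1.50 (adjusted p 0.0827).

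Itgb5, another alpha V partner, is named after its values were seen. It had 659, 503 and 728 normalized counts in liver with antibiotics, against 47.1, 481 and 112 with saline, so saline library 2 lay just under the antibiotics libraries (log2 2.18, adjusted p 0.134). Itga5, second to Itgb1 per length in liver, averaged 888 ± 90.0 with antibiotics and 734 ± 128 with saline (log2 0.28, adjusted p 0.34). Itga9, Itga6, Itga8 and Itgb4 had log2 values of 1.25, 0.73, 0.59 and -0.02. Itgb8 had 0 reads in all 3 saline livers and 9, 1 and 4 reads with antibiotics. Against a floor of 3 reads per library the antibiotics mean was at least 1.24-fold the saline mean, but 1 antibiotics library lay under that floor. The bound leaves out the counting error of the antibiotics libraries, and limma did not call Itgb8 (adjusted p 0.102). With Itgb8 at that bound the median of the 17 liver integrins was 0.59 in place of 0.72.

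**Figure D4:**
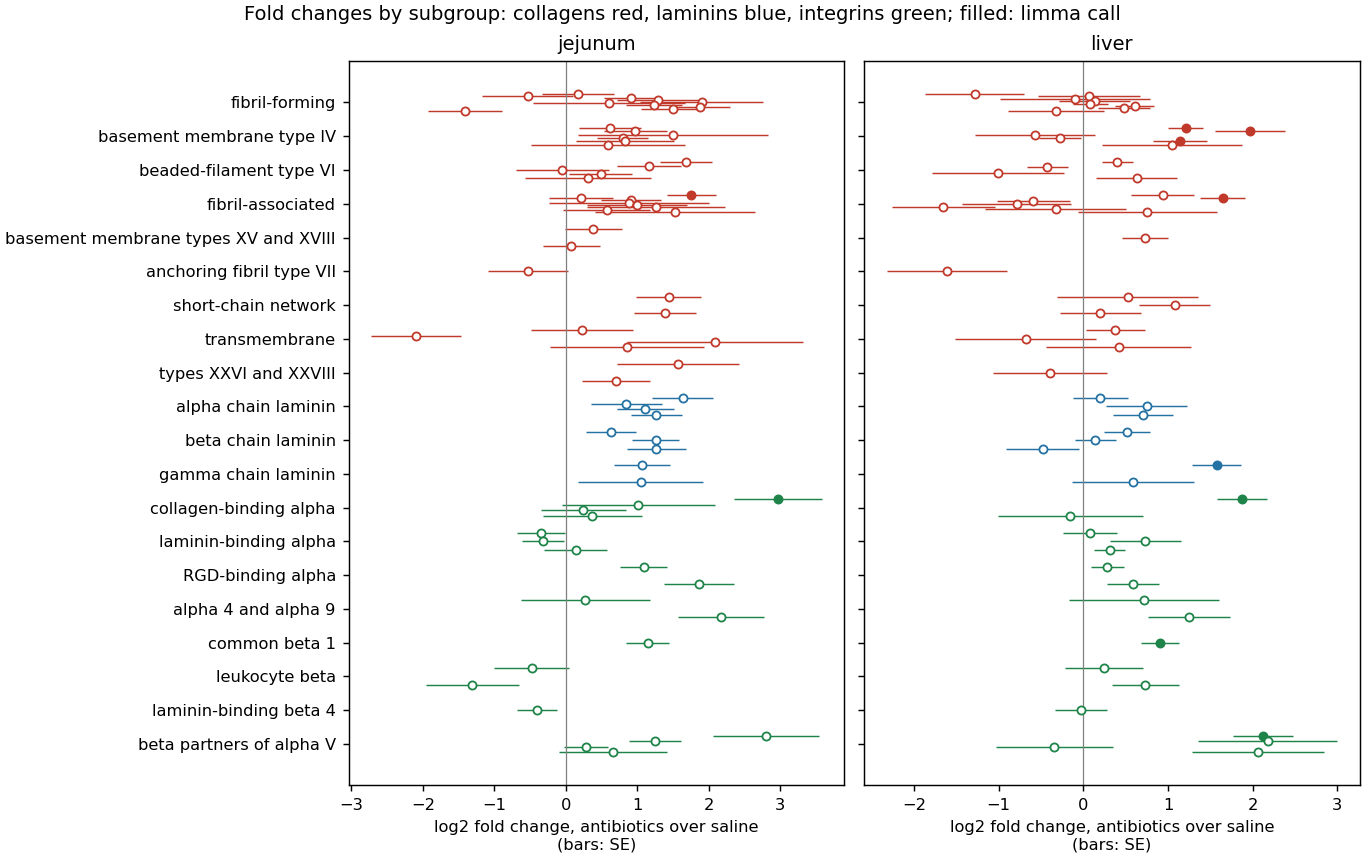
Log2 fold change of the members shown, antibiotics over saline, by subgroup, in jejunum (left) and liver (right); bars are SE, collagens are red, laminins blue and integrins green, and filled points are limma calls. The liver calls shown include 3 type IV collagens and the laminin Lamc1, while the jejunal calls are 1 fibril-associated collagen and 1 collagen-binding integrin.

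Enzymes that fold and crosslink collagen were called in liver: 6 of 27 collagen processing genes tested rose and 0 fell. Over all liver genes limma called 7.93% higher. Loxl2, a lysyl oxidase that crosslinks collagen IV, had 35.8, 49.4 and 63.8 normalized counts with antibiotics, against 7.64, 9.19 and 3.42 with saline (log2 2.76, limma adjusted p 0.0104). Adamts2, which removes the amino-terminal propeptide of procollagen, and P4hb, the beta subunit of prolyl 4-hydroxylase, rose by 1.31 and 1.22 (adjusted p 0.0146 and 0.0229). Among 14 other basement membrane genes 1 was called, near the share of all genes. This was Nid1, which links laminin to collagen IV and rose by 1.01 (adjusted p 0.0193). Among 17 other matrix proteins 4 rose: Thbs1, Fn1, Fbn1 and, named after its value was seen, Emilin1. Fn1 had 65870, 56520 and 58720 with antibiotics, against 18450, 30220 and 25550 with saline (log2 1.31, adjusted p 0.0153).

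Receptors, adhesion proteins, proteases and TGF-beta signalling were read in liver as well. Limma called 7.93% of all liver genes higher, and 15.1% of those in the longest of 10 classes of gene length. The counts for each of these lists lie in or near the range of these shares. Dag1, the dystroglycan receptor of laminin, was 1 of 10 other receptors called (log2 1.31). The adhesion complex had 2 of 28 called, Tns4 and Tns1 (log2 3.35 and 1.18), and proteases and inhibitors 2 of 13, Mmp8 and Mmp14 (log2 1.78 and 2.50). In TGF-beta signalling 2 of 14 rose, Smad4 and Tgfbr2, and Tgfbr2, a receptor of TGF-beta, had 1351, 1252 and 1880 normalized counts with antibiotics, against 93.0, 459 and 121 with saline (log2 3.08, limma adjusted p 0.0246). None of the genes in these 8 lists was called lower by limma in either tissue. Over all genes it called 0.519% lower in jejunum and 4.89% in liver. In the longest class of gene length these were 0.0514% and 1.45%. The authors' deposited table gives 1 of 10 other matrix receptors lower in liver.

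Markers of matrix-making cells were set beside these genes. Of 8 stellate cell markers 7 lay above 0 and Reln rose by 1.83 (limma adjusted p 0.00408). Summed stellate counts were 1617 to 2149 with antibiotics and 848 to 963 with saline, with no marker at 0. Smooth muscle markers had 3 of 10 above 0 and 1 lower, Myl9. Their sums were 409 to 714 with antibiotics and 686 to 818 with saline. Of 7 fibroblast markers 6 lay above 0 and 0 were called. Fibroblast sums were 3925 to 4740 with antibiotics and 4601 to 6168 with saline. Endothelial markers had 5 of 6 above 0 and 0 called, with sums of 1351 to 1852 with antibiotics and 1346 to 1641 with saline. Sinusoid and Kupffer cell markers had 4 of 8 above 0 and 1 lower, Clec4f, a Kupffer cell gene, with sums of 6168 to 6783 with antibiotics and 7517 to 9962 with saline. Of 8 hepatocyte markers 4 lay above 0, with sums of 653700 to 1236000 with antibiotics and 1046000 to 1315000 with saline. Among them Ttr and Ass1 fell, Ttr by 1.22 (log2), and Apob rose by 0.97. Cholangiocyte markers had 4 of 6 and mesothelium markers 4 of 4 above 0, with 0 called in either list. Stellate cell, fibroblast, endothelial, cholangiocyte and mesothelium markers thus lay mostly above 0, as the members did. Smooth muscle, sinusoid and Kupffer cell, and hepatocyte markers did not. Over all liver genes tested, 8225 of 16540 lay above 0, and limma called 7.93% higher and 4.89% lower. The part of these lists in the result, and that of the mitochondrial share given above, was not tested.

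Members are long genes, and fold changes followed gene length in both tissues. When all genes tested were ordered by deposited gene length and divided into 10 equal classes, the jejunal median log2 fold change was -0.15 in the shortest class and 0.45 in the longest. In liver these were -0.41 and 0.32. Of 69 jejunal members, 34 were in the longest class, from 4926 bases up, and 19 in the next, and in liver 27 and 18 of 60. In the longest class limma called 2.88% of all jejunal genes and 1 of 34 members higher, and in the next class 1.34% of genes and 1 of 19 members. For liver it called 15.1% of the longest genes and 5 of 27 members, and in the next class 12.4% of genes and 2 of 18 members.

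The medians of members were set beside those of all genes in the same class of length. The 34 jejunal members of the longest class had a median of 0.81, against 0.45 for all genes of that class, and the 19 of the next class had 1.09, against 0.31. In liver the 27 members of the longest class had 0.31, against 0.32, and the 18 of the next had 0.24, against 0.21, while the 7 of the class after that had 0.72, against 0.17. The shorter classes held 1 to 4 members each where they held any, and the liver medians of members there were 0.39 to 2.12, against -0.15 to 0.07 for all genes. Separate groups with antibiotics above were found for 36.8% of the longest and 26.7% of the next longest jejunal genes, and for 34.6% and 27.7% in liver.

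Subtracting a smooth trend of deviation on length from each library ended both jejunal calls: Itga1 had 2.71 (limma adjusted p 0.0769) and Col12a1 had 1.04 (adjusted p 0.0990), where 0.0771% of all genes were called higher. In liver 7 members were called, Itgb1 (0.71, adjusted p 0.0520) and Col4a5 (0.79, adjusted p 0.142) were not, and 6.65% of all genes were called higher. Among the genes of the role and marker lists it ended all 9 jejunal calls, which had an adjusted p of 0.061 (Ddr2) to 0.0903 (Flna) after it and include Fn1, Tns1, Vcl, Lims2, Smoc2, Lmod1 and Synpo2. In liver it ended the calls of Nid1 (0.70, adjusted p 0.0577), Fbn1, Emilin1, Tns1, Loxl4, Ttr, Apob and Myl9, and Agrn, a basement membrane proteoglycan, was called lower (-0.67, adjusted p 0.0499). The medians after this step were 0.54, 0.71 and 0.15 for jejunal collagens, laminins and integrins, and -0.10, 0.23 and 0.41 for those of liver. The sign of the liver collagen median thus turned with the correction.

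**Figure D5:**
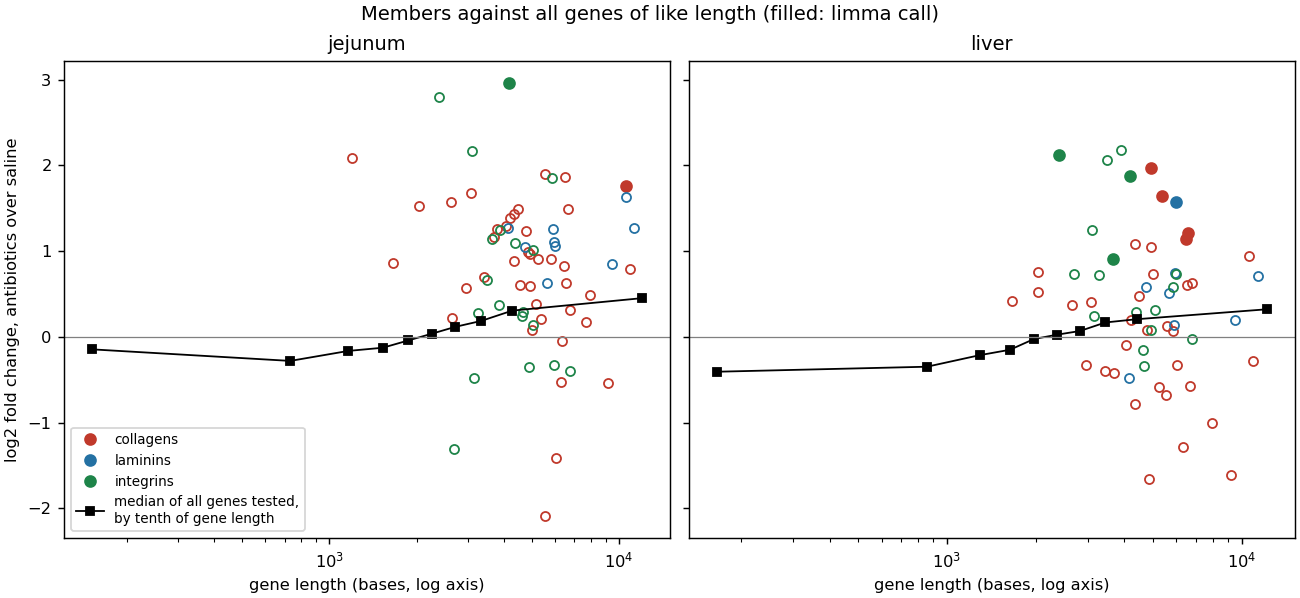
Log2 fold change of the members shown, antibiotics over saline, against deposited gene length (log axis) in jejunum (left) and liver (right); filled points are limma calls and black squares are medians of all genes tested in 10 classes of length. The black line climbs with length in both tissues, and members lie mostly at its right end.

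The authors' deposited table, made with the same normalized counts, gives more members in jejunum. At its adjusted p under 0.05 it gives 14 members higher (4.37% of all genes) and 2 lower (3.84%), with Col5a1, Col5a2, Col6a1, Col8a1, Itga8, Itga9, Itgb1, Itgb3, Itgb5, Lama1, Lama5 and Lamb2 beside Col12a1 and Itga1, and Col17a1 and Col5a3 lower. In the authors' deposited table Itga1 has a log2 fold change of 2.55 with an adjusted p of 0.000163, and Col12a1 has 1.68 with 0.00106. In liver the authors' deposited table gives 10 members higher (9.11% of all genes) and 0 lower (7.36%), the limma calls plus Col18a1. DESeq2 on the recovered reads gave the same members in both tissues, with 5.86% of the genes it tested higher and 5.15% lower in jejunum, and 11.9% higher and 9.6% lower in liver. The edgeR test called 0 jejunal members, with 0.257% of genes higher and 0.382% lower, and 9 liver members higher, with 9.5% of genes higher and 7.45% lower.

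Between tissues, antibiotics libraries lay above saline libraries in both jejunum and liver for 10 of the 59 members tested in both, against 5.47% of the 15489 genes tested in both: Col12a1, Col5a1, Col6a1, Col8a1, Itga1, Itga8, Itgb1, Itgb3, Itgb5 and Lama5. Members separated in opposite directions numbered 0, against 2.66% of all genes. These shares are over genes of all lengths. No share for both tissues was taken among genes of like length, and within each tissue long genes lay above more often. The difference of the responses, jejunum minus liver, was tested with edgeR on reads in 1 fit over 12 libraries, for 59 members among 14187 genes. It called 0 members, with 12 of 59 at an unadjusted p under 0.05 (19.8% of all genes), and 0.0564% of all genes, while limma called 0 members and 0.599% of all genes. The smallest p belonged to Col22a1, a low gene with 31.5 normalized counts with antibiotics and 18.2 with saline in jejunum, and 2.97 with antibiotics and 11.7 with saline in liver (difference 2.88, edgeR adjusted p 0.154). For Lamb3 the difference was 1.71 (edgeR adjusted p 0.16), for Col14a1 -1.48 (adjusted p 0.166) and for Col6a1 1.23 (adjusted p 0.177). Without jejunal saline library 1 edgeR called 8 members with a higher value in jejunum, Col16a1, Col3a1, Col5a1, Col6a1, Col6a2, Itga5, Lamb2 and Lamb3, where it called 3.34% of all genes in that direction and 2.41% in the other.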

How the data were processed

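RNA was measured in 12 libraries, 3 in each of 4 groups, which were formed from the sample titles. CASAVA 1.4, HISAT2 2.0.5 and DESeq2 1.20.0 are named in the submitters' processing notes. The genome build, the read counter and whether counting used strand are not given in the sources used here, so a gene's reads may include those of a gene that overlaps it on either strand, and no coordinates of the tables are printed. Each tissue has 1 table. Its columns headed count hold the authors' normalized signal, per the file headers and the values: whole reads divided by 1 size factor per library. Reads were recovered from that factor, and 100% of the values were whole within 0.01. The authors deposited FPKM beside them, normalized within each tissue, and their own log2 fold changes and p-values, per the file headers.

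From these values, R 4.3.3 with limma 3.58.1 (trend, robust) was run per tissue on log2 of the normalized count with a pseudocount of 1, which understates changes of low genes. Genes needed a mean of at least 1, and p-values were adjusted by Benjamini-Hochberg over all genes tested, with a threshold of 0.05. The tissue difference used the edgeR 4.0.16 quasi-likelihood test on recovered read counts of annotated genes with 1 identifier in both tables. Length classes are 10 equal classes of the deposited gene length. The correction for gene length removed a lowess trend (span 0.3) from each library, estimated where the mean was at least 50. Where a group had 0 reads, 3 reads in each library were taken as the limit, for counting error alone. Alternative settings were pseudocounts of 0.1 and 5, a minimum of 1 CPM or none, TMM scaling, library totals, the length correction, edgeR, DESeq2 1.42.0, replicate number as a block and each library left out. The scripts were tested on simulated data, and no pair of libraries was a duplicate.

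The members and all lists were chosen with earlier results of these data known. A called member is not reported here; counts and sums include it and figures leave it out. Genes named are the other members called, 27 symbols fixed by role, and the member with the highest FPKM of each family. Col1a2 and Col6a3 are among the 27 and were not analysed. Up to 3 called genes of each list are named by smallest p. Other genes were named with their values known, whether said so or not. They include Col4a3, Col4a4, Col4a6, Col22a1, Col26a1, Itgb2, Itgb7 and Itgb8. Columns of per-sample values that were not used numbered 0. RefSeq promoter windows (GRCr8) were searched on both strands.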

Additional observations from a re-analysis of the deposited data

How the results depend on the processing

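No called member changed sign under the alternatives run, while the median of liver collagens, which has no test, was -0.10 with the length correction in place of 0.17. The 2 jejunal members higher (0.761% of all genes) became 3 with no filter (0.821%) and with a pseudocount of 5 (1.05%). They became 1 with a filter of 1 CPM (0.734%), with TMM scaling (0.673%) and with library totals (0.278%). With a pseudocount of 0.1 (0.488%), the length correction (0.0771%) and edgeR (0.257%) there were 0. DESeq2 on recovered reads gave 14 (5.86%). Members lower in jejunum were 2 with DESeq2 (5.15% of all genes). Scaling by library totals moved the median of all genes to 0.51 in jejunum and 0.14 in liver (log2), and family medians stayed above these shifts. With the replicate block, jejunum had 16 members higher (4.61% of all genes) and 1 lower (3.74%), and liver 8 higher (6.96%). Same-numbered libraries had small correlations, 0.08, 0.11 and 0.02 in jejunum and 0.05, -0.05 and -0.08 in liver, and were not taken as pairs. Other pairs had -0.10 to 0.02 in jejunum and -0.08 to 0.13 in liver. Between organs same-numbered libraries had 0.05, 0.05 and 0.12 with antibiotics and 0.00, 0.03 and 0.01 with saline. The fit of the tissue difference took the 12 libraries as independent, although both organs may come from the same animals. With a block by number it also called 0 members. Leaving out 1 library gave 0 to 24 jejunal members higher, 0 to 1 lower, 0 to 11 liver members higher, and 0 to 8 members whose response differed between tissues. Other alternatives gave 7 to 10 liver members higher (6.65% to 11.9% of all genes), 0 lower (2.49% to 9.6%) and 0 that differed between tissues. The cause of these differences was not tested. Reads per member limit what can be seen of low genes: 61 of 70 members in jejunum and 40 of 63 in liver had enough reads for edgeR.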
